A study of Canis lupus familiaris with 3 samples.

Results

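Molecular chaperones and the folding enzymes of the endoplasmic reticulum (ER) were compared between MDCK cells carrying E47 and MDCK-CMV control cells. The members were all genes of the array whose symbol names a heat shock protein, a J-domain protein, a chaperonin subunit or a co-chaperone. Prolyl isomerases and genes of ER folding, oxidation or stress were included too. They were picked by a symbol rule, but the set was chosen with earlier results of these data known, so its shares are no test. The symbol rule matched 70 genes, and 66 of them had a spot with a value on all 3 arrays, out of 5508 named genes with such values. MDCK is an epithelial line from dog kidney, and E47, a product of the TCF3 gene, is a helix-loop-helix factor that the series title names as a repressor of E-cadherin.

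The MDCK-E47 transfectants and the MDCK-CMV control cells were grown in the same serum-containing medium. Whether the transfectants are 1 clone or a pool, and what drives E47 in them, is not stated in the labels. A single array held extraction 1 of the E47 cells, labelled with Cy5, and 2 arrays held extraction 2, labelled with Cy3 on one and with Cy5 on the other, always against control RNA in the other dye. This dye swap counts as 1 replicate, which gives n = 2 extractions, and no label says whether separate cultures were used. The p-values therefore rest on a spread between extractions that may be technical, moderated toward the spread of all features. Extraction 1 has no dye swap, so its difference from extraction 2 also holds any dye difference. The arrays carry human cDNA clones, so closely related dog transcripts can bind the same clone.

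All values are log2 ratios of E47 over control. This direction is likely and not stated: each sample lists the E47 cells as its first channel, and all columns, the dye swap included, correlated positively. If the values ran the other way, every higher and lower below would swap, and so would every rank from the highest or lowest. The base of the logarithm was read as 2, and fold values would be larger if the deposited values were natural logarithms. The arrays gave a value for 24771 to 25537 of 27648 spots. The Cy5 array of extraction 2 correlated with the array of extraction 1 at r = 0.765 and with its own dye swap at r = 0.654 across spots, which are not independent replicates. Between extraction 1 and the Cy3 array of extraction 2, r was 0.580. The values are ratios, so whether the epithelial markers of MDCK cells were present at all cannot be read from them.

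Chaperones hold unfolded proteins and release them for folding. In the cytosol, HSP70 proteins work with J-domain proteins that deliver clients, with nucleotide exchange factors that release them, and with HSP90, small heat shock proteins and the ring-shaped chaperonin CCT, which folds actin and tubulin. In the ER, the HSP70 protein HSPA5, the lectin chaperones CALR and CANX, disulfide isomerases and prolyl isomerases fold secreted and membrane proteins. When unfolded proteins accumulate there, the sensors of the unfolded protein response raise the genes of ER chaperones and of ER-associated degradation. Heat shock factors raise many of the cytosolic genes.

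Of the 66 genes, 7 were higher and 3 lower in E47 cells at an adjusted p under 0.05 (limma, Benjamini-Hochberg over all 14008 features of the array). The 7 that rose were CRYAB, DNAJA1, FKBP2, CCT2, HSPH1, DNAJC10 and FKBP8, and the 3 that fell were HERPUD1, CALR and the clone annotated as HSP90B2P. Across all named genes 9.19% passed, with 5.34% higher and 3.85% lower, against 15.2%, 10.6% and 4.55% of the 66 genes. The median log2 ratio of the 66 genes was 0.026, beside -0.017 for all named genes. Of the members, 26 were above 0 and 20 below 0 on all 3 arrays, and the other 20 changed sign between arrays. Over all named genes 30.6% were above and 32.8% below 0 on every array, against 39.4% and 30.3% of the members. At least a 2-fold mean difference was seen in 5 of the 66 genes, or 7.58%, against 4.76% of all named genes.

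**Figure D1:**
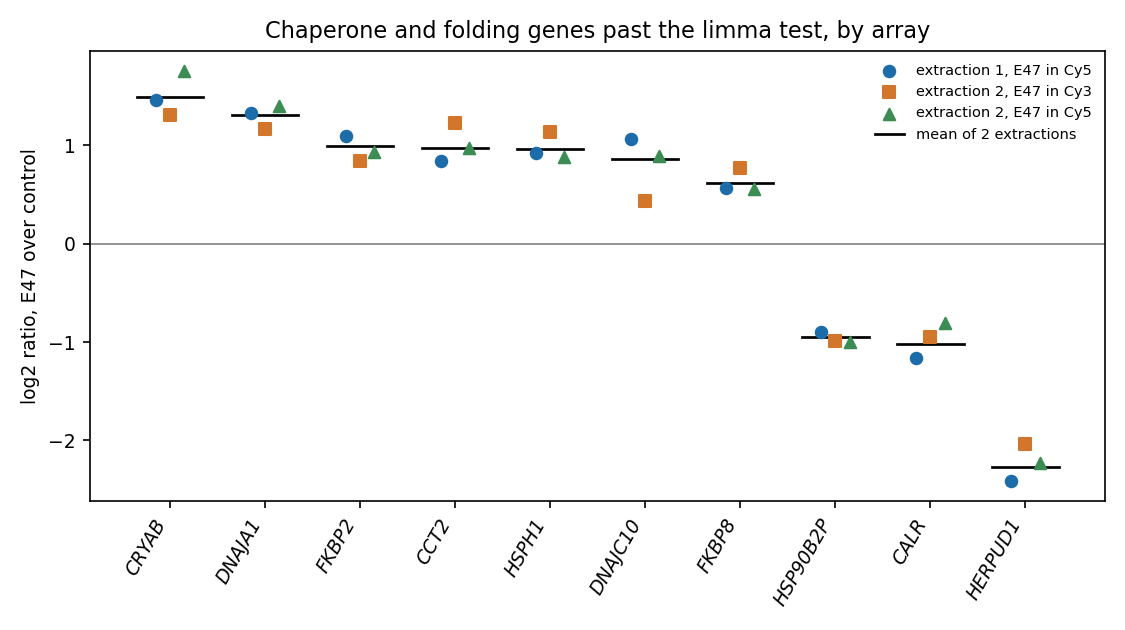
Log2 ratio of E47 over control (y axis) on each of the 3 arrays for the 10 genes past the limma test, with the mean of the 2 extractions as a bar. The 3 arrays lie on one side of 0 for each gene, HERPUD1 is below -2 on all of them, and the Cy3 value of DNAJC10 lies closest to 0, at 0.44.

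Among the cytosolic heat shock proteins and their J-domain partners, 3 of 17 genes (17.6%) rose, none fell and 14 did not pass the limma test, where 5.34% of all named genes rose. Of the 17, 5 (29.4%) had an unadjusted p under 0.05, a smaller share than the 35.6% of all named genes. CRYAB, a small heat shock protein that binds unfolding proteins without ATP, had log2 ratios of 1.46 on the array of extraction 1 and of 1.31 (Cy3) and 1.75 (Cy5) in the dye swap. It was higher in E47 cells on every array, by 2.82-fold on average, with a mean log2 ratio of 1.49 ± 0.09 (moderated SE, n = 2) and an adjusted limma p of 0.0194. Counted from the highest ratio, CRYAB was number 36 of 5508 named genes. It was measured by 1 clone in 4 spots.

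DNAJA1, a J-domain co-chaperone of cytosolic HSP70, gave 1.33 in extraction 1 and 1.17 (Cy3) and 1.40 (Cy5) in extraction 2. This gave a mean of 1.31 ± 0.08 (moderated SE, n = 2), a 2.48-fold difference with an adjusted limma p of 0.0197. HSPH1, an HSP110 protein that acts as nucleotide exchange factor of HSP70, gave 0.92 in extraction 1 and 1.13 (Cy3) and 0.88 (Cy5) in extraction 2. Its 3 values lay close together, with a mean of 0.96 ± 0.09 (moderated SE, n = 2) and an adjusted limma p of 0.0241. When the Cy5 array of extraction 2 was left out the adjusted p of HSPH1 was 0.0571, while CRYAB and DNAJA1 kept theirs under 0.05, at 0.0438 and 0.0450.

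Apart from HSPA8, the cytosolic HSP70 and HSP90 genes, whose proteins these partners serve, had log2 ratios near 0. HSPA1A, the stress-induced HSP70, averaged -0.030 and HSPA2 -0.0095, and both changed sign between arrays. HSPA1L was at -0.085 and HSP90AB1, the constitutive cytosolic HSP90, at -0.13 with -0.13, -0.19 and -0.086 on the 3 arrays. HSPA8, the constitutive HSP70, was above 0 on all arrays, at 0.23, 0.46 and 0.39, with a mean of 0.33. Its adjusted limma p was 0.123, and its 3 clones were at -0.093, 0.37 and 0.67. HSPA4, another HSP110 protein like HSPH1, averaged 0.069, with clones from -0.098 to 0.39. HSP70 transcripts are alike in sequence, so their human clones can bind more than 1 dog member, which was not tested. The dog gene table holds neither HSPA1A nor HSPA1L as a symbol.

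The other J-domain and small heat shock genes of the cytosol were spread around 0. DNAJB2 had the lowest ratio of the class, with -1.03 in extraction 1 and -0.42 (Cy3) and -0.80 (Cy5) in extraction 2, from a single spot. Its mean was -0.82 ± 0.14 (moderated SE, n = 2) with an adjusted limma p of 0.0576. DNAJB1, the main heat-induced J-domain protein, was below 0 on all 3 arrays, at -0.30, -0.12 and -0.22, with its 3 clones between -0.26 and -0.19. DNAJB5, HSPB3 and DNAJA4 averaged -0.069, -0.047 and -0.043, and HSPB7, DNAJA2 and DNAJB6 0.10, 0.14 and 0.16, none past the test. DNAJB4 lacked a value on the Cy3 array and could not be tested. Its spots gave 0.56 and 0.13 in extraction 1 and 0.17 and 0.17 on the Cy5 array of extraction 2.

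Subunits of the cytosolic chaperonin CCT, which closes around actin and tubulin during folding, lay mostly above 0. Of its 9 genes, 1 (11.1%) passed the limma test, near the 9.19% of all named genes. An unadjusted limma p under 0.05 was found for 6 of the 9 (66.7%), against 35.6% of all named genes. On all 3 arrays 7 of the 9 were above 0 and 1 was below, where 30.6% and 32.8% of all named genes were. The 9 include the chaperonin-like gene CCT8L2, and also CCT6A and CCT6B, whose clones can bind the same dog transcripts. They are therefore not 9 separate readings of the subunits. The median log2 ratio of the class was 0.39, with 0.35, 0.34 and 0.44 on the array of extraction 1 and on the Cy3 and Cy5 arrays of extraction 2. CCT2, the beta subunit, was the gene that rose, with 0.84 in extraction 1 and 1.23 (Cy3) and 0.98 (Cy5) in extraction 2. Its mean was 0.97 ± 0.11 (moderated SE, n = 2), 1.96-fold, with an adjusted limma p of 0.0307. It rested on 1 spot, and the second spot of the clone, which had no Cy5 value in extraction 2, gave 0.92 and 1.26. The call was lost without the Cy5 array of extraction 2, at an adjusted p of 0.0687.

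The zeta subunit CCT6A had the widest dye swap of the chaperonin genes. It gave 0.63 in extraction 1, 0.73 with E47 in Cy3 and 1.73 with E47 in Cy5, with an adjusted limma p of 0.0672. CCT6B, its testis-enriched paralog, was at 0.61 with an adjusted p of 0.0515 and clones at 0.46 and 0.75. The clone annotated as the human pseudogene CCT6P1 was at 0.55, with 0.68, 0.43 and 0.43 on the 3 arrays. These clones can bind the same dog transcripts, so their values are not separate evidence. TCP1, the alpha subunit, was at 0.39 and CCT7, the eta subunit, at 0.34, with nearly equal values on the 3 arrays of 0.35, 0.43 and 0.44 for TCP1 and of 0.35, 0.34 and 0.33 for CCT7. CCT8L2, a chaperonin-like gene, was at 0.60, CCT4 at 0.21 and CCT5 at 0.11. CCT3, the gamma subunit, lay on the other side, with -0.26, -0.15 and -0.11 and a mean of -0.20.

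None of the 8 cytosolic co-chaperones passed the limma test, and 1 of them (12.5%) had an unadjusted p under 0.05, against 35.6% of all named genes. BAG1, a nucleotide exchange factor of HSP70 that also binds BCL2, had the lowest mean, -1.13 ± 0.28 (moderated SE, n = 2), with an adjusted limma p of 0.0987. Its values were -1.64 in extraction 1, -0.11 with E47 in Cy3 and -1.12 with E47 in Cy5. The array with E47 in Cy3 stood apart from both arrays with E47 in Cy5, and without it the mean was -1.38 with an adjusted p of 0.0374. With the Cy5 array of extraction 2 left out instead, the mean was -0.87 with an adjusted p of 0.371, a dye term gave -0.74, and extraction 2 alone gave -0.61. BAG3, BAG4 and BAG5 averaged 0.0049, 0.12 and 0.21, and BAG5 gave 0.22, 0.23 and 0.19 on the 3 arrays. STIP1, which links HSP70 to HSP90, was below 0 on every array with a mean of -0.16, and its 2 clones were at -0.18 and -0.15. The J-domain proteins DNAJC6, an auxilin that uncoats clathrin vesicles, DNAJC12 and DNAJC13 lay between 0.030 and 0.090.

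**Figure D2:**
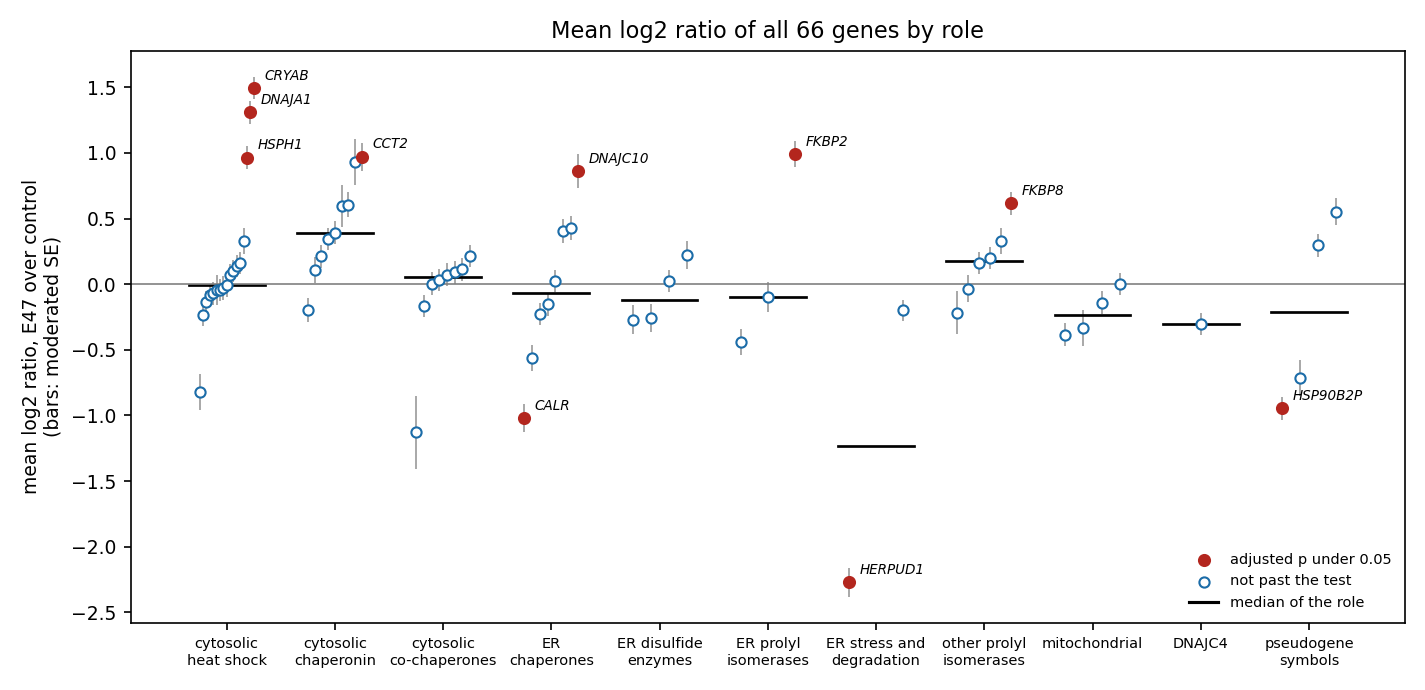
Mean log2 ratio of E47 over control (y axis, bars are moderated SE, n = 2 extractions) of all 66 genes, grouped by role, with the median of each role as a black line. The ER classes hold genes past the test on both sides of 0, with HERPUD1 at -2.27 and FKBP2 at 0.99, while the chaperonin class lies above 0 apart from CCT3.

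The ER genes divided. Of 17 ER genes, 2 rose, 2 fell and 13 did not pass, so 23.5% were called against 9.19% of all named genes. An unadjusted limma p under 0.05 was found for 8 of the 17 (47.1%), against 35.6% of all named genes. HERPUD1, an ER membrane protein with a ubiquitin-like domain that assembles the ER-associated degradation complex, had log2 ratios of -2.41 in extraction 1 and of -2.03 (Cy3) and -2.23 (Cy5) in extraction 2. It was lower in E47 cells on every array, by 4.83-fold, with a mean of -2.27 ± 0.11 (moderated SE, n = 2) and an adjusted limma p of 0.0194. Counted from the lowest ratio, HERPUD1 was number 12 of 5508 named genes. The call held in all 10 alternatives that gave a test, with adjusted p-values up to 0.0438.

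CALR, calreticulin, a calcium-binding lectin chaperone of glycoproteins, gave -1.16 in extraction 1 and -0.95 (Cy3) and -0.81 (Cy5) in extraction 2. Its mean was -1.02 ± 0.11 (moderated SE, n = 2), 2.03-fold lower, with an adjusted limma p of 0.0292, or 0.0555 when the Cy5 array of extraction 2 was left out. Both clones of CALR were below 0, one at -1.33 and the other at -0.71. CANX, calnexin, the membrane-bound lectin chaperone of the same cycle, averaged 0.027 and changed sign between arrays, with 0.027, 0.27 and -0.21.

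The ER members of the HSP70 and HSP90 families gave weaker or conflicting values. HSPA5, the ER HSP70 known as BiP, was below 0 on all 3 arrays, at -0.12, -0.22 and -0.16, with a mean of -0.15 and an adjusted limma p of 0.279. It rested on 1 spot. The second HSPA5 spot, which had no Cy3 value, gave -0.21 and -0.76 on the Cy5 arrays of extractions 1 and 2. The clone annotated as HSP90B2P, a human pseudogene related to the ER HSP90 gene HSP90B1, fell, with -0.90 in extraction 1 and -0.98 (Cy3) and -1.00 (Cy5) in extraction 2. Its mean was -0.95 ± 0.09 (moderated SE, n = 2) with an adjusted limma p of 0.0246, or 0.0572 when the Cy5 array of extraction 2 was left out. The dog gene table holds no HSP90B2P, and which dog transcript the clone bound was not tested. The HSP90B1 clone itself lacked a Cy3 value and gave -0.29 and -0.22 in extraction 1 and -0.18 and 0.022 on the Cy5 array of extraction 2, all closer to 0 than any HSP90B2P value.

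Of the ER J-domain proteins, which direct HSPA5 to its clients, DNAJC10 rose. DNAJC10 also carries thioredoxin domains and reduces disulfides of proteins bound for degradation. It gave 1.06 in extraction 1 and 0.44 (Cy3) and 0.89 (Cy5) in extraction 2, with a mean of 0.86 ± 0.13 (moderated SE, n = 2) and an adjusted limma p of 0.0495. That call was lost in 4 of 10 alternatives, with adjusted p up to 0.178 without the Cy5 array of extraction 2. DNAJB11 lay the other way, at -0.45, -0.71 and -0.64, with a mean of -0.56 and an adjusted limma p of 0.0634. DNAJC3, which also inhibits the eIF2alpha kinases, was above 0 on all arrays with a mean of 0.40, and DNAJC16 below 0 on all arrays with a mean of -0.23. SERPINH1, the collagen chaperone HSP47, was at 0.49, 0.45 and 0.28 with a mean of 0.43 and an adjusted limma p of 0.0771.

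None of the 4 genes of disulfide formation passed the limma test, and none had an unadjusted p under 0.05. Across all named genes the shares were 9.19% and 35.6%. All 4 lay between -0.27 and 0.22. P4HB, the main protein disulfide isomerase, gave -0.41, -0.061 and -0.19, with a mean of -0.27. A left-out spot of P4HB gave 0.24 in extraction 1 and -0.27 with E47 in Cy3, and with incomplete spots kept its mean was -0.16. PDIA5 averaged -0.26 and PDIA6 0.024, the clones of PDIA6 being at -0.089 and 0.14. ERO1B, an oxidase that recharges disulfide isomerases, was highest, at 0.34, -0.032 and 0.23.

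FKBP2, a prolyl isomerase of the ER lumen, was the highest ER gene. It gave 1.10 in extraction 1 and 0.84 (Cy3) and 0.94 (Cy5) in extraction 2, in 4 spots of 1 clone. The mean was 0.99 ± 0.10 (moderated SE, n = 2), 1.99-fold, with an adjusted limma p of 0.0264, or 0.0623 when the Cy5 array of extraction 2 was left out. The ER cyclophilin PPIB, which works in collagen folding, lay below 0 on every array, at -0.54, -0.36 and -0.31, with an adjusted limma p of 0.0854. PPIC, another secretory-pathway cyclophilin, averaged -0.098 and gave -0.24, -0.16 and 0.25.

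XBP1, the transcription factor whose mRNA is spliced by the ER stress sensor IRE1, averaged -0.20, with -0.20, -0.060 and -0.33 on the arrays and an adjusted limma p of 0.194. Its 2 clones disagreed, one averaging 0.25 and above 0 on every array, the other -0.65 and below 0 on every array. EDEM1, a lectin-like protein that delivers misfolded glycoproteins to degradation, had no value on the array of extraction 1 and was not tested. Its spots gave -0.35 and -0.31 with E47 in Cy3 and -0.75 and -0.79 with E47 in Cy5. HSPA13, an ER-associated HSP70-like protein, had a value on the Cy3 array alone, 0.30.

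Set side by side, the 17 cytosolic heat shock genes had a median log2 ratio of -0.0095 and the 17 ER genes of -0.15, beside -0.017 for all named genes. On the array of extraction 1 the medians were -0.059 for the cytosolic and -0.20 for the ER genes. In the dye swap they were 0.10 and -0.060 with E47 in Cy3, and 0.021 and -0.19 with E47 in Cy5, the cytosolic median preceding the ER median. The cytosolic median was thus above the ER median on each of the 3 arrays, by 0.14 to 0.21. The ranges overlapped widely: the cytosolic genes ran from -0.82 to 1.49 and the ER genes from -2.27 to 0.99. On every array, 8 of 17 ER genes (47.1%) and 3 of 17 cytosolic heat shock genes (17.6%) were below 0, against 32.8% of all named genes. Above 0 on every array were 4 (23.5%) and 7 (41.2%), against 30.6% of all named genes. The difference between the classes was not tested, since genes are not replicates and the classes were drawn up with earlier results known.

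**Figure D3:**
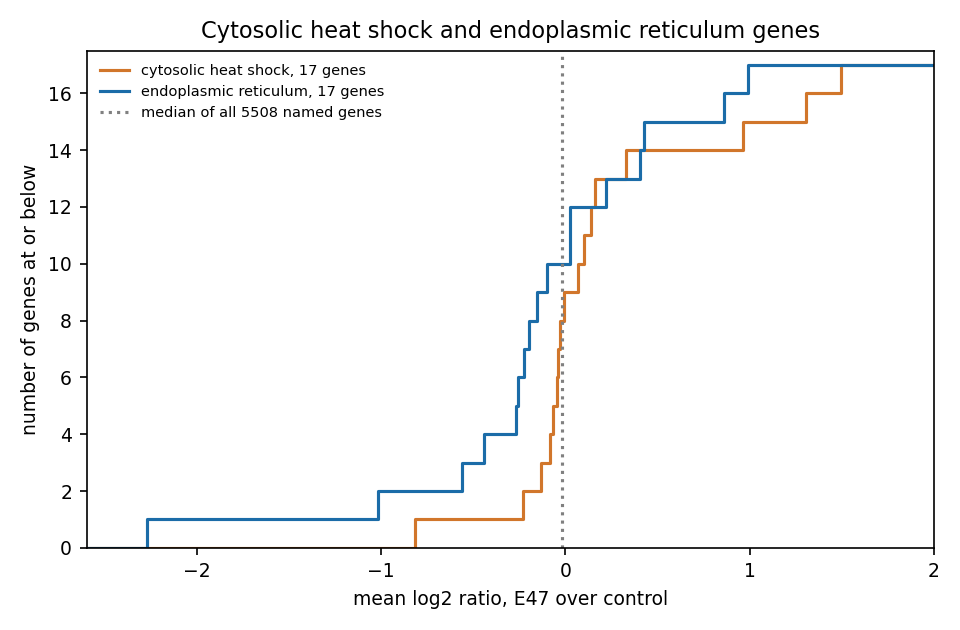
Number of genes (y axis) at or below a given mean log2 ratio of E47 over control (x axis) for the 17 cytosolic heat shock and 17 ER genes, with the median of all 5508 named genes as a dotted line. The ER curve lies to the left in the lower part, down to HERPUD1 at -2.27, and the curves cross above 0, where both hold genes past the test.

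Outside both classes, FKBP8 rose, a prolyl isomerase anchored in the mitochondrial outer membrane that binds BCL2. It gave 0.57 in extraction 1 and 0.77 (Cy3) and 0.56 (Cy5) in extraction 2, with a mean of 0.62 ± 0.09 (moderated SE, n = 2) and an adjusted limma p of 0.0423. When the Cy5 array of extraction 2 was left out it was 0.102. FKBP1A, the target of FK506 and rapamycin, had the lowest mean of these isomerases and gave 0.055, -0.33 and -0.65, with a mean of -0.22. PPIH, a cyclophilin of the spliceosome, averaged 0.33, but its 2 clones were at 0.57 and -0.40. PPID, PPIE and FKBP15 lay between -0.036 and 0.20.

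The 4 mitochondrial chaperone genes lay between -0.385 and 0.0025. None of the 4 passed the limma test, where 9.19% of all named genes did. An unadjusted limma p under 0.05 was found for 1 of them (25%), against 35.6% of all named genes. HSPA9, the mitochondrial HSP70, was lowest, at -0.43, -0.23 and -0.45, with an adjusted limma p of 0.0860. HSPD1, the HSP60 chaperonin of the matrix, gave -0.13 in extraction 1, -0.27 with E47 in Cy3 and -0.81 with E47 in Cy5. DNAJA3 was below 0 on all arrays with a mean of -0.14. PPIF, cyclophilin D, averaged 0.0025, with -0.042, 0.13 and -0.036, and its sign turned in some alternatives. DNAJC4, a J-domain protein measured by 6 clones, was below 0 on every array, at -0.35, -0.18 and -0.34, and its clones ran from -0.56 to -0.055.

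Among the remaining clones with human pseudogene symbols, HSPB1P2, related to the small heat shock gene HSPB1, gave -0.93 in extraction 1 and -0.23 (Cy3) and -0.78 (Cy5) in extraction 2, with an adjusted limma p of 0.0681. HSPA7, related to HSP70 genes, averaged 0.30 from 1 spot. Neither symbol is in the dog gene table.

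In the dye swap of extraction 2, the same RNA was measured with the dyes exchanged. The median size of the difference between its arrays was 0.17 for the 66 genes and 0.17 for all named genes. It was 1.00 for CCT6A, with the Cy5 value above the Cy3 value, and 1.01 for BAG1, with the Cy5 value below. For CRYAB the Cy5 value was above by 0.45 and for HERPUD1 below by 0.20. Adjacent spots of 1 clone differed less, by a median of 0.046, 0.027 and 0.040 on the 3 arrays over 90 pairs of member spots.

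**Figure D4:**
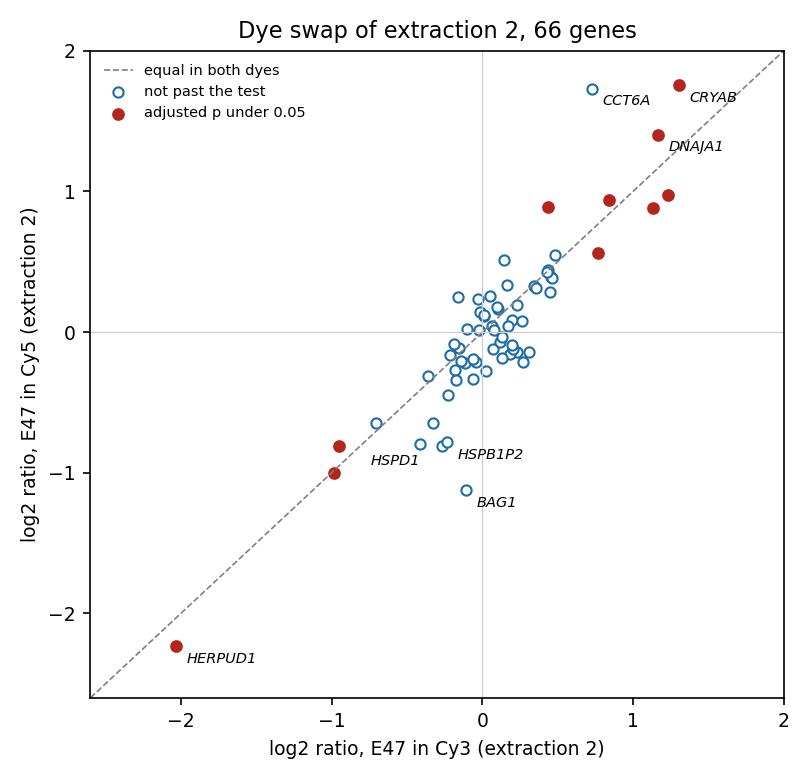
Log2 ratio of E47 over control of the 66 genes in extraction 2 with E47 in Cy3 (x axis) and with E47 in Cy5 (y axis), with the line of equal values. HERPUD1, CRYAB and DNAJA1 lie far from 0 in both dyes, CCT6A lies 1.00 above the line and BAG1 1.01 below it.

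Removing an array of the dye swap moved the number of calls. Without the Cy5 array, 3 of the 10 called genes kept an adjusted p under 0.05 (CRYAB, DNAJA1 and HERPUD1), where 1.98% of all named genes passed. Without the Cy3 array all 10 kept theirs and 6 genes were added, where 16.7% of all named genes passed. The added genes were CCT6B, higher, and BAG1, DNAJB2, HSPB1P2, DNAJB11 and HSPA9, lower.

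Genes that surround these chaperones in their pathways were read from 3 lists. The lists were drawn up with earlier results of these data known, so their shares are no test. The first list held 26 genes of the unfolded protein response, among them its factors and targets of its ATF4 branch, and 14 were measured. Of these 14, 5 fell, none rose and 9 did not pass, that is 35.7% lower where 3.85% of all named genes were lower. Of the 14 genes, 9 (64.3%) had an unadjusted p under 0.05, against 35.6% of all named genes. The list had a median of -0.39, with 9 of its 14 genes below 0 on all arrays. ATF4, the factor translated when eIF2alpha is phosphorylated, gave -1.64, -1.76 and -1.73, with a mean of -1.69 ± 0.09 (moderated SE, n = 2), a 3.23-fold difference with an adjusted limma p of 0.0194. ASNS, asparagine synthetase, an ATF4 target, gave -1.67, -1.42 and -2.08, with a mean of -1.71. Both were lower on all arrays.

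The other 3 that fell are also tied to the ATF4 branch, through eIF2alpha or ATF4. Which signal lies behind these values was not tested. PPP1R15A and PPP1R15B encode regulatory subunits of the phosphatase that dephosphorylates eIF2alpha, and their means were -1.15 and -0.66. PPP1R15A gave -1.41 in extraction 1, -0.58 with E47 in Cy3 and -1.19 with E47 in Cy5. ATF3, a stress-induced factor downstream of ATF4, was at -0.94, -0.91 and -0.95, nearly equal on the 3 arrays. Without the Cy5 array of extraction 2, ATF4 and ASNS kept their calls and ATF3, PPP1R15A and PPP1R15B lost theirs, at adjusted limma p-values of 0.0572, 0.158 and 0.102. ATF6, the membrane-bound factor of another branch, averaged -0.14 with an adjusted p of 0.352, and EIF2S1, which encodes eIF2alpha, 0.34 with an adjusted p of 0.114.

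**Figure D5:**
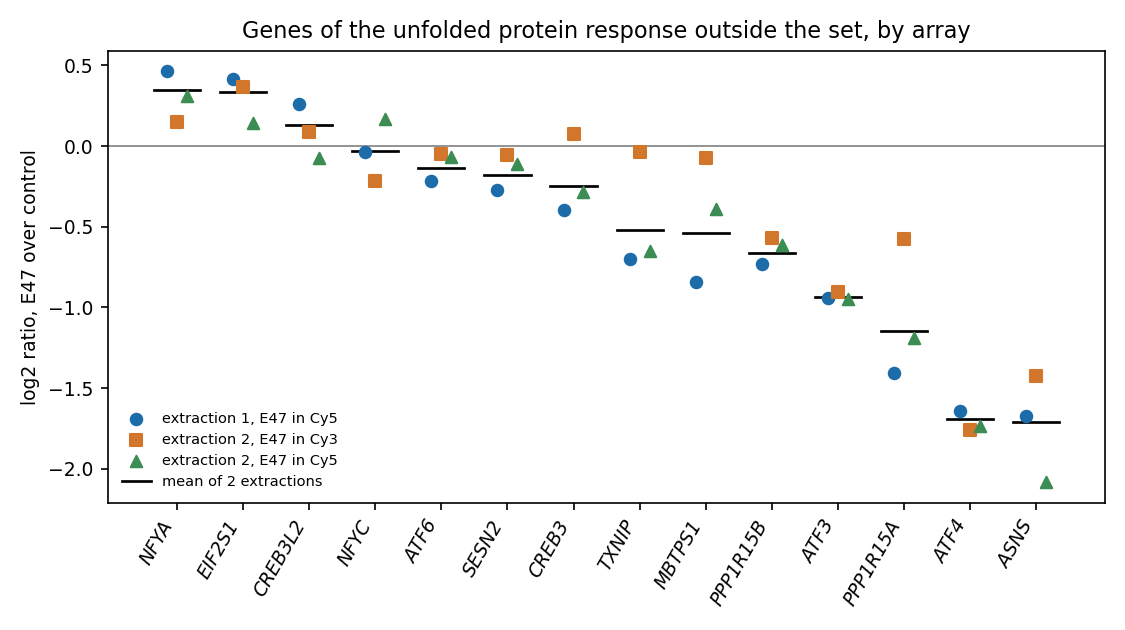
Log2 ratio of E47 over control (y axis) on each array for the 14 measured genes of the unfolded protein response list, with the mean of the 2 extractions as a bar. ATF4 and ASNS lie below -1.4 on all arrays, and the Cy3 value of PPP1R15A, at -0.58, lies above its values on both Cy5 arrays.

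Of 20 measured genes of ER translocation, glycosylation and degradation, 1 rose and 1 fell, with a median log2 ratio of 0.057. The share called, 10.0%, was near the 9.19% of all named genes. The called genes were paralogs: SDF2 rose to 0.80, with 0.80, 1.01 and 0.59 on the arrays, and SDF2L1, an ER stress-induced partner of HSPA5 and DNAJB11, fell to -0.80, with -0.95, -0.40 and -0.89. Both lost their calls without the Cy5 array of extraction 2, at adjusted limma p-values of 0.0642 and 0.185. SDF2L1 also lost its call with incomplete spots kept, at an adjusted limma p of 0.0523. None of the 16 measured genes of the heat shock response and cytosolic folding passed the limma test, where 9.19% of all named genes did. Of the 16, 8 (50.0%) had an unadjusted p under 0.05, against 35.6% of all named genes, and their median was -0.021. Their means ran from -1.21 for HMOX1 to 0.54 for PDCL. HMOX1 gave -1.70 in extraction 1 and -0.49 (Cy3) and -0.96 (Cy5) in extraction 2, with an adjusted limma p of 0.0827. HSF1, the main heat shock factor, averaged 0.30 and changed sign between arrays, with 0.47, -0.11 and 0.38. CDC37, which brings kinases to HSP90, was below 0 on every array with a mean of -0.42 and an adjusted p of 0.0729.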

How the data were processed

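The authors deposited log ratios, 1 column per array, read here as log2; no label or header states the log base, the background correction, the normalization or the direction. Base 10 is not possible, since the largest value, 7.80, exceeds the log10 of a 16-bit range, 4.82. The columns have medians between -0.0051 and 0.0027. Their spread differs: the median absolute value after centring was 0.26 for extraction 1, and 0.15 (Cy3) and 0.23 (Cy5) for extraction 2. Signal over background is unknown, and no dim or control spots could be removed. Spots take their gene from the platform annotation, where 17488 have 1 symbol, 654 several and 9506 none. Spots lacking a value on any array were dropped, which left 23275, and a gene was given the mean of its spots on each array. Of the 66 members, 60 have the same symbol in the RefSeq dog gene table of assembly UU_Cfam_GSD_1.0, used for names only. Members rest on 191 spots and 89 clones; 15 have several clones, and in 6 of these the clones differ in sign.

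The dye swap of extraction 2 was averaged, which leaves 1 residual degree of freedom. All 14008 features, 5508 named genes and 8500 other spots, entered an intercept-only fit (lmFit, eBayes; limma 3.58.1, R 4.3.3). P-values were adjusted by the Benjamini-Hochberg method, and 0.05 was the threshold. The control RNA was treated as 1 reference. No label says whether it was extracted once or for each array; if once, its own spread is left out of the p-values, and extraction 1 has no dye swap. The SE is the moderated one, which draws on all features with 2.71 prior degrees of freedom. A gene with nearly equal extractions, such as DNAJC16, therefore still has an SE of 0.083. On simulated data of 14008 features, 35 of 100 features changed by 1 on the log2 scale and 93 of 100 changed by 2 were called. Of 13808 unchanged ones, 7 were called. The share of changed features was set beforehand and not matched to these data, so the shares called need not hold here. The number of arrays limits the precision.

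The members, the roles and the pathway lists were chosen with earlier results of these data known, so no list was tested. Array values are given for members past the test and for the highest and lowest of each role; of the pathway lists those past the test are named, and others named were chosen after their values were seen. Alternatives changed the arrays used, the dye model, centring, scaling, spot summary, missing values, eBayes, the genes tested and the threshold. Figures were drawn with matplotlib 3.10.9.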

Additional observations from a re-analysis of the deposited data

How the results depend on the processing

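Of the 66 genes 7 were higher and 3 lower in E47 cells. Without the Cy5 array of extraction 2 these counts were 2 and 1, and without its Cy3 array 8 and 8. A dye term over 3 arrays, which treats the dye swap as separate samples, gave 8 and 6, where 13.5% of all named genes passed against 9.19%. Testing named genes alone gave 14 and 8, and a threshold of 0.10 gave 14 and 9, where 21.3% and 22.6% of all named genes passed. The other alternatives gave 6 or 7 higher and 3 or 4 lower. Apart from the looser threshold, the cause of these shifts was not tested. Of 10 called genes, CRYAB, DNAJA1 and HERPUD1 kept their call in all 10 alternatives with a test. The threshold of 0.10 is among these 10 and could lose no call, since it reads the same p-values. CCT2 and FKBP8 lost theirs with scaled arrays too, and DNAJC10 with median centring, the median over spots and incomplete spots kept. Leaving out an extraction leaves no residual degree of freedom, so this gave values without a test. The cytosolic median was then 0.053 without extraction 1 and -0.059 without extraction 2, against ER medians of -0.13 and -0.20. Across all alternatives the cytosolic median lay between -0.059 and 0.053, on both sides of 0, and the ER median between -0.20 and -0.13. PPIF, which did not pass, changed sign to -0.028 with the median over spots, -0.012 with incomplete spots kept, -0.039 without the Cy3 array and -0.042 without extraction 2. Each ratio already pairs E47 with the control RNA on its array, so there is no further replicate number to block on.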
